A study of Rattus norvegicus with 9 samples.

Results

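The genes described here separate nerve conduits filled with fibres from an empty tube: a gene was taken when its level in all 6 libraries from fibre-filled conduits lay above, or below, its level in all 3 libraries from the empty tube. Levels are CPM, the deposited counts of a gene brought to 1 common library total after the totals were scaled between libraries by the trimmed mean of M values (TMM). By this rule 600 of the 21486 listed genes were separated (2.79%), 343 higher and 257 lower in the fibre-filled conduits. Of these, 520 had enough counts to enter the test across genes (3.32% of those tested), 298 higher (1.90% of 15659) and 222 lower (1.42%), and the other 80 were too low to be tested. The rule uses the measured levels of the contrast it describes, so that levels and fold changes between fibre-filled and empty conduits are given below as descriptions.

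RNA was sequenced from the tissue inside conduits that joined the ends of a rat sciatic nerve across 2 cm, collected at day 14, with 3 libraries for each of 3 conduits. The Hollow conduit had no structure in its lumen. The AFMC conduit carried aligned fibres and lengthwise microchannels, and the AFMC-AA-SP conduit was the same with spermidine on the fibre surface and L-ascorbic acid inside the fibres. Strain, sex and age of the rats are not given in the labels, nor is how many animals a library came from, so p-values measure the spread between these libraries, which may be technical. A tube with fibres but no channels, or with the compounds but no fill, was not analysed here.

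An implanted material is first met by neutrophils, short-lived granulocytes drawn by chemokines, and then by macrophages, which take up debris through lysosomes and show antigen on MHC class II molecules. In a conduit this response runs beside the growth of a tissue bridge, in which fibroblasts, vessels and Schwann cells, the glia of peripheral nerve, divide, migrate and lay down matrix ahead of axons. Spermidine is a polyamine, one of a family of small charged metabolites that cells make, oxidise and move across membranes by dedicated enzymes and transporters.

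No gene passed the test of both fibre-filled conduits against Hollow over the whole table. In edgeR's quasi-likelihood test, with each conduit weighed equally and Benjamini-Hochberg adjustment over 15659 genes, 0 genes were called higher (0%) and 0 lower (0%) at an adjusted p under 0.05, and the smallest adjusted p was 0.147. At an unadjusted p under 0.05 there were 645 genes higher (4.12%) and 833 lower (5.32%), together 9.44%. DESeq2 called 32 genes higher (0.222% of 14414) and 16 lower (0.111%), of which 28 and 11 were separated genes. The library AFMC replicate 3 stood apart on the leading principal component of the log2 levels, at 72.3 against -23.5 to 9.93 for the other 8 libraries. It was the highest of the 9 libraries for 202 of the 298 genes higher in fibre-filled conduits (67.8%, against 22.0% of all genes tested) and the lowest for 109 of the 222 lower ones (49.1%, against 19.0%). By the rule no Hollow library can be the highest of a higher gene or the lowest of a lower one, which raises these shares. Values without that library, or without another one that moves a result as far, are given beside the results where they differ most. Sox10, the transcription factor of the Schwann lineage, was at 46.1 to 85.7 CPM in all 9 libraries, so the labelled nerve tissue held its defining glia.

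The separated genes had small differences. The median log2 fold change was 0.43 for the genes higher in fibre-filled conduits and -0.33 for the lower ones, against 0.001 for all genes tested. A size of 1 or more was reached by 54 of the higher genes and 21 of the lower. The distance between the groups was smaller still. The ratio of the nearest fibre-filled and Hollow libraries had a median of 1.04 for higher and 1.03 for lower genes, and it was 1.5 or more for 5 and 2 genes. At the edge of the rule, Ubxn1 was just inside, with the lowest fibre-filled library at 81.66 CPM and the highest Hollow library at 81.64. Il1a was just outside, at 1.7784 CPM for the lowest fibre-filled library against 1.7785 for the highest Hollow one. Among the lower genes, Lxn was just inside, with 52.72 CPM as its highest fibre-filled level and 52.75 CPM as its lowest Hollow level, and Lmnb2 was just outside, at 25.792 against 25.788.

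**Figure D1:**
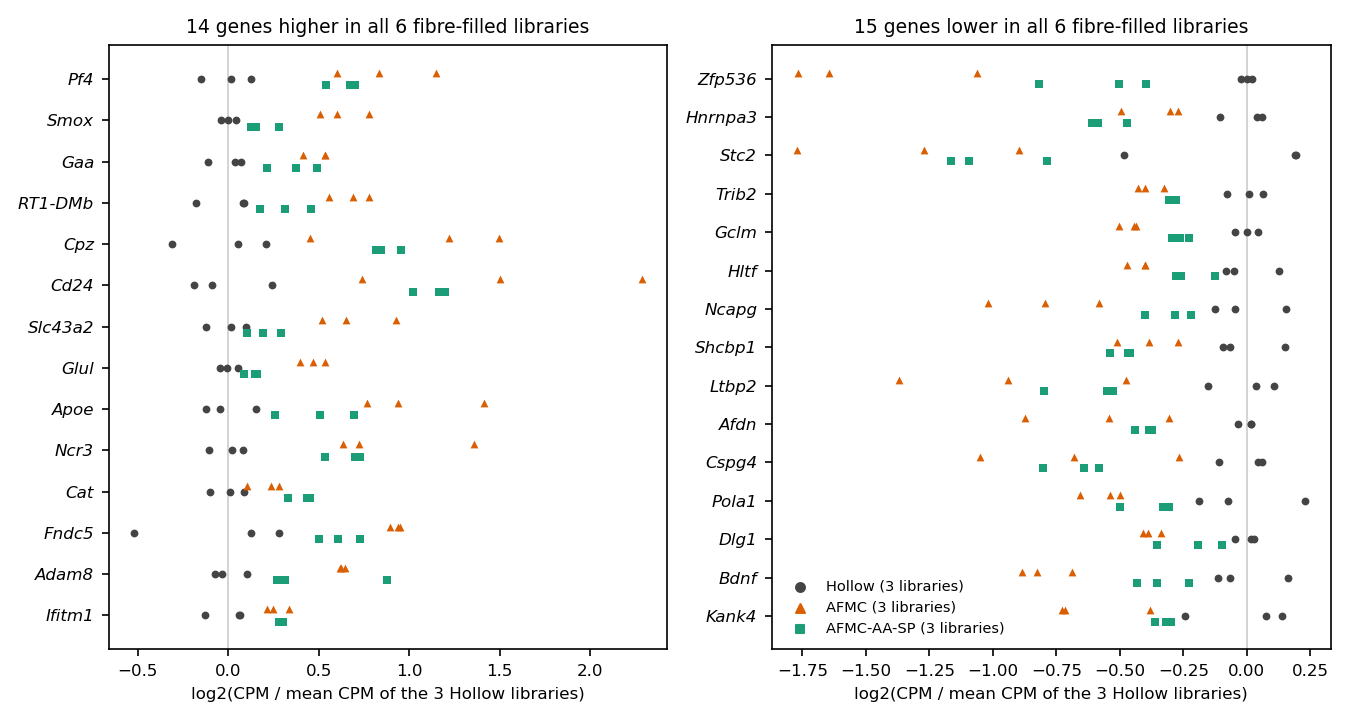
Level of 14 higher and 15 lower separated genes, named for their small edgeR p, per library, as log2 of CPM over the mean of the 3 Hollow libraries. Circles are Hollow, triangles AFMC and squares AFMC-AA-SP. No fibre-filled point overlaps the circles of its gene, as the rule requires, and for Cd24 AFMC replicate 3 lies far to the right.

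The gene with the smallest p of the whole table had no symbol. ENSRNOG00000070878 is a protein-coding gene of chr5:110908577-110913310 on the minus strand, as the deposited table lists it, and was named after its values were seen. Its counts were 0, 1 and 0 for Hollow, 24, 20 and 46 for AFMC and 38, 67 and 55 for AFMC-AA-SP. The ratio of the groups' levels was 129, with a 95% interval of 22.9 to 5110 that covers counting error only. It rests on pooled counts of 250 for fibre-filled and 1 for Hollow. The gene was picked for this difference, so the interval is a description and no test. Its log2 fold change ran from 2.33 to 8.38 under the alternative processings. The fibre-filled libraries all lay above Hollow, as the rule requires, at a low level of 0.949 to 3.14 CPM.

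Genes of lipid transport, lysosomes and antigen presentation, all functions of macrophages, were among the higher genes. Apoe, the lipid carrier that macrophages and glia secrete, was at 5354, 5068 and 6147 CPM for Hollow, 10560, 9389 and 14700 for AFMC and 7855, 6593 and 8950 for AFMC-AA-SP. Its lowest fibre-filled library was AFMC-AA-SP replicate 2, and all 3 AFMC libraries were above all 3 AFMC-AA-SP libraries. Both conduits against Hollow gave a log2 fold change of 0.78 ± 0.17 (SE), and 0.68 without AFMC replicate 3. Ctsl, a lysosomal cysteine protease and the other separated member of the 25 tested lysosome and lipid genes, was at 1166, 962 and 1158 CPM for Hollow, 1401, 1272 and 1210 for AFMC and 1176, 1296 and 1938 for AFMC-AA-SP, with AFMC-AA-SP replicate 3 high. In that list 19 of 25 genes had a positive fold change and the median was 0.13, or 0.076 without Hollow replicate 1. Gaa, the lysosomal enzyme that degrades glycogen, was at 127, 112 and 124 CPM for Hollow, 175, 162 and 176 for AFMC and 157, 170.3 and 140.4 for AFMC-AA-SP. Against Hollow, the log2 fold change was 0.43 ± 0.08 (SE) (without AFMC replicate 3, 0.42). Other lysosomal hydrolases and cathepsins among the separated genes, named after their values were seen, were Fuca1, Man2b1, Ctsh and Ctsc, with log2 fold changes of 0.26, 0.27, 0.29 and 0.37. Without AFMC replicate 3 those of Ctsh and Ctsc were 0.20 and 0.23.

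RT1-DMb, a chain of the molecule that loads peptides onto MHC class II, was at 96.3, 115 and 116 CPM for Hollow, 176, 160.3 and 187 for AFMC and 123, 135 and 149.9 for AFMC-AA-SP. AFMC was the highest group, and the 3 groups did not overlap. As a log2 fold change against Hollow this was 0.50 ± 0.09 (SE). RT1-Ba and RT1-Bb, the chains of a classical class II molecule, were also separated, with log2 fold changes of 1.005 and 0.87, or 0.78 and 0.75 without AFMC replicate 3. All 19 tested members of the class II list had a positive fold change, with a median of 0.47, or 0.27 without AFMC replicate 3. Class II genes belong to a family of similar sequences, and how the authors' counting treated reads that match several of them is not stated. Among other leukocyte genes, Mpeg1, the pore-forming perforin-2 of macrophages, was at 579.5, 586 and 705 CPM for Hollow, 784, 771 and 1199 for AFMC and 1036, 802 and 874 for AFMC-AA-SP. Adgre1, the F4/80 antigen of macrophages, was the 1 separated member of the 23 tested macrophage genes, at a log2 fold change of 0.84, or 0.57 without AFMC replicate 3. Of those 23, 18 were positive, with a median of 0.23, or 0.14 without Hollow replicate 1. Adam8, a membrane metalloprotease of leukocytes, was at 85.01, 82.9 and 93.5 CPM for Hollow, 134, 136 and 134 for AFMC and 108, 105 and 159.8 for AFMC-AA-SP. AFMC-AA-SP replicate 3 was its highest library, and AFMC replicate 3 did not stand out. Its log2 fold change against Hollow was 0.57 ± 0.13 (SE), and it was 0.57 without AFMC replicate 3. Oscar, a receptor of osteoclasts and myeloid cells, was at 14.1, 11.98 and 12.6 CPM for Hollow, 33, 22.9 and 61.2 for AFMC and 21.4, 17.5 and 22.2 for AFMC-AA-SP, a log2 fold change of 1.13 that was 0.89 without AFMC replicate 3. It was the separated member of the list for fused macrophages and osteoclast-type cells, in which 14 of 23 tested genes were positive and 9 negative, with a median of 0.04. Cd2, a T and NK cell adhesion receptor, was the separated member of its list, in which 20 of 20 tested genes were positive. That list's median was 0.65, or 0.23 without AFMC replicate 3. Ncr3, an activating receptor of NK cells, had a log2 fold change of 0.80, or 0.67 without AFMC replicate 3.

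The neutrophil list held more separated genes than any of the other lists. Of the 16 tested neutrophil genes, 8 were separated, all higher, against 1.90% of all genes tested. They were S100a8 and S100a9, the subunits of calprotectin, the chemokine receptor Cxcr2, the granulocyte colony-stimulating factor receptor Csf3r, the antimicrobial peptide gene Camp, the histone-modifying enzyme Padi4, the formyl peptide receptor Fpr1 and the decoy receptor Il1r2. The list's median log2 fold change was 1.74, or 0.94 without AFMC replicate 3, and it was 2.55 for AFMC and 0.94 for AFMC-AA-SP against the same Hollow libraries.

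S100a8 was at 3.56, 3.05 and 3.87 CPM for Hollow, 5.098, 10.2 and 50.99 for AFMC and 10.7, 5.899 and 9.97 for AFMC-AA-SP. Every fibre-filled library was above Hollow, and AFMC replicate 3 was far above the rest. S100a9 was at 11.8, 6.79 and 9.27 CPM for Hollow, 15.5, 21.9 and 139.9 for AFMC and 30.6, 13.6 and 24.2 for AFMC-AA-SP, again with AFMC replicate 3 far above the rest. The log2 fold changes of S100a8 and S100a9 were 2.00 and 1.98, or 1.23 and 1.15 without that library. Cxcr2 was at 8.36, 4.44 and 5.05 CPM for Hollow, 11.1, 16.6 and 99.8 for AFMC and 21.7, 10.8 and 14.96 for AFMC-AA-SP. On the log2 scale the difference from Hollow was 2.12 ± 0.71 (SE), and 1.31 without AFMC replicate 3. Csf3r was at 27.6, 20.4 and 12.9 CPM for Hollow, 31.9, 39.1 and 278 for AFMC and 44.8, 36.5 and 36 for AFMC-AA-SP, where the highest Hollow library lay close under the lowest fibre-filled one. Camp, Padi4 and Fpr1 were low, at most 3.73, 2.83 and 2.14 CPM in any library. Of the 8 other tested members, 4 had a negative fold change. Mpo, made in neutrophil precursors, was at 0.198 to 0.865 CPM in AFMC against 1.27 to 1.51 in Hollow and 1.48 to 2.62 in AFMC-AA-SP. Lcn2, of the secondary granules, was at 195 CPM in AFMC replicate 3 and at 4.11 to 9.39 CPM in the other 5 fibre-filled libraries, which overlapped the Hollow range of 3.82 to 10.1. The summed level of the list was 62.3 to 90.3 CPM in Hollow, 104 to 922 in AFMC and 115 to 164 in AFMC-AA-SP. In bulk RNA, more cells of a type and more RNA per cell cannot be told apart. S100a8, S100a9 and Cxcr2 are each in a pair of lists, so their counts recur below.

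**Figure D2:**
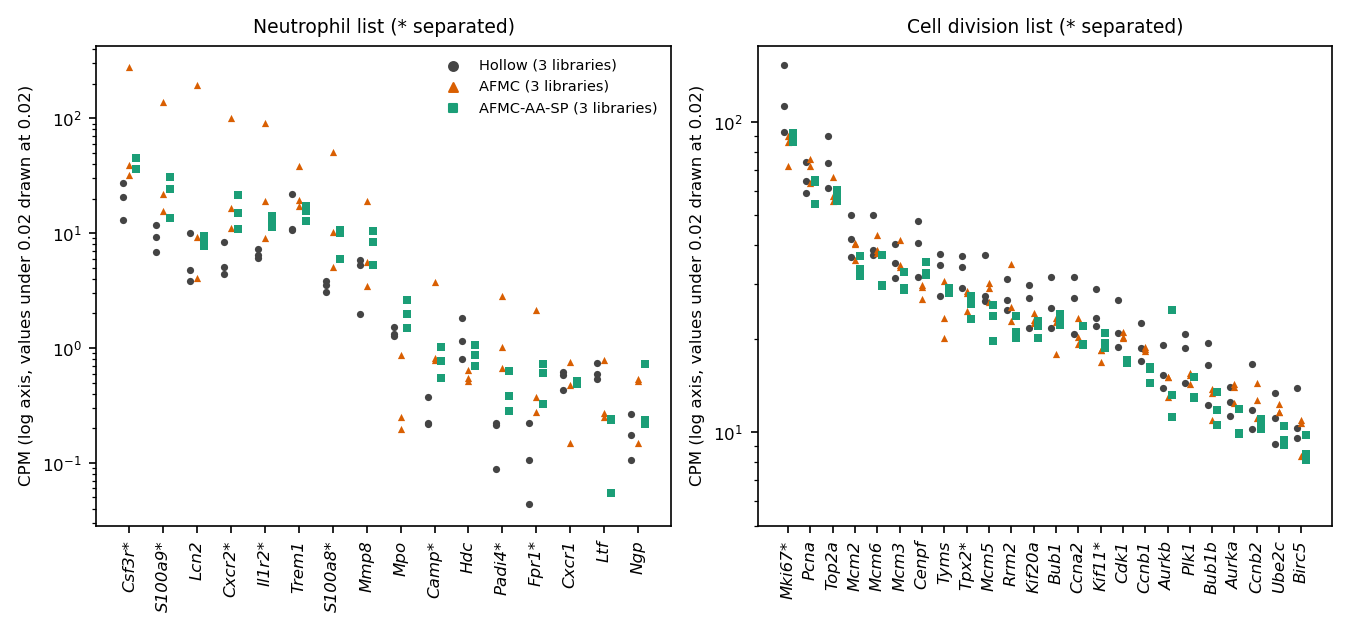
CPM of every tested neutrophil gene (left) and cell division gene (right) in each library, on a log axis, with separated genes marked by an asterisk. Circles are Hollow, triangles AFMC and squares AFMC-AA-SP. In the neutrophil panel 1 AFMC library, replicate 3, is far above the others for genes such as Csf3r, at 278 CPM.

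Among chemokines and their receptors 7 of 33 tested genes were separated, all higher, against 1.90% of all genes tested. Of the 33 fold changes 29 were positive, with a median of 0.54, or 0.30 without AFMC replicate 3 and 0.33 without Hollow replicate 1. Cxcl1, Cxcl3 and Cxcl6 code for ligands of the CXC class that bind Cxcr2 and attract neutrophils, and their genes lie near each other on chromosome 14. Cxcl6 was at 11.5, 8.51 and 13.5 CPM for Hollow, 21.1, 48.8 and 248 for AFMC and 40.4, 23.4 and 30.03 for AFMC-AA-SP. The lowest fibre-filled library was 1.56 times the highest Hollow library. The log2 fold change of both conduits against Hollow was 2.36 ± 0.72 (SE), and 1.56 without AFMC replicate 3. Cxcl3 was at 28.01, 17.9 and 12.7 CPM for Hollow, 37.3, 56.7 and 75.5 for AFMC and 29.7, 30.8 and 30.5 for AFMC-AA-SP, with all 3 AFMC libraries above all 3 AFMC-AA-SP libraries. Cxcl1 was at 5.25, 2.67 and 2.33 CPM for Hollow, 5.53, 11.7 and 28.7 for AFMC and 6.92, 7.12 and 5.42 for AFMC-AA-SP, and Hollow replicate 1 lay just under the lowest fibre-filled library. Pf4, platelet factor 4, a chemokine of platelets that some macrophages also make, lies in the same stretch, at chr14:17298308-17299365 in the deposited table. It was at 72.7, 81.5 and 88.1 CPM for Hollow, 122, 144 and 179 for AFMC and 129, 118 and 131 for AFMC-AA-SP. The 6 fibre-filled libraries were close together and clear of Hollow. Both conduits against Hollow gave a log2 fold change of 0.76 ± 0.12 (SE), the smallest p among separated genes that are higher and have a symbol and at least 5 CPM. It was 0.68 without AFMC replicate 3. Ccl3, a macrophage chemokine, had a log2 fold change of 1.001, or 0.72 without AFMC replicate 3. Ccr7, the receptor that guides dendritic cells to lymph nodes, had one of 0.90, also 0.72 without that library.

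Of 24 tested genes for inflammatory cytokines and enzymes, 5 were separated, all higher, against 1.90% of all genes tested. They were Il1b, Il12b, Nfkbia, S100a8 and S100a9. Il1b, the cytokine interleukin 1 beta, was at 27.2, 20.4 and 20.6 CPM for Hollow, 45.8, 73.7 and 560.0 for AFMC and 62.2, 40.4 and 55.5 for AFMC-AA-SP. Its AFMC-AA-SP libraries were within the range of AFMC replicates 1 and 2 or below it. Against Hollow, the log2 fold change was 2.26 ± 0.75 (SE), and 1.30 without AFMC replicate 3. Nfkbia, the inhibitor that holds NF-kappa B in the cytoplasm and is itself an NF-kappa B target, was at 57.6, 61.1 and 56.7 CPM for Hollow, 86.6, 97.9 and 366 for AFMC and 78.8, 64.5 and 71.6 for AFMC-AA-SP. Its log2 fold change of 0.97 was 0.48 without AFMC replicate 3. The list's median was 0.70, and 0.37 without AFMC replicate 3. None of the 20 tested interferon response genes was separated, against 3.32% of all genes tested in either direction. All 20 had a positive fold change, with a median of 0.69. Without AFMC replicate 3 that median was 0.44, with 19 of 20 positive, without Hollow replicate 2 it was 0.42, and without AFMC-AA-SP replicate 1 it was 0.28, with 18 of 20 positive. Mx1, an antiviral GTPase induced by interferon, ran from 35.7 to 150 CPM in Hollow and from 39.0 to 394 CPM in the fibre-filled libraries.

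The promoters of a cell division gene and of 3 inflammatory genes are shown because these genes were separated in opposite directions. Sequences are from RefSeq on build GRCr8, 250 bases before to 50 bases after the start, read 5′ to 3′ along the gene, and all 4 genes are on the minus strand: Mki67 at chr1:199952544-199952843, Cxcl1 at chr14:17479272-17479571, Cxcl6 at chr14:17596368-17596667 and Nfkbia at chr6:78597023-78597322. GRCr8 positions are not those of the deposited table, whose build the sources do not name. Capitals mark matches on either strand: in Mki67, the CCAAT box (CCAAT) and the cell cycle homology region (TTTGAA), and in the other genes the kappa B motif and the TATA box (TATAAA).
Mki67: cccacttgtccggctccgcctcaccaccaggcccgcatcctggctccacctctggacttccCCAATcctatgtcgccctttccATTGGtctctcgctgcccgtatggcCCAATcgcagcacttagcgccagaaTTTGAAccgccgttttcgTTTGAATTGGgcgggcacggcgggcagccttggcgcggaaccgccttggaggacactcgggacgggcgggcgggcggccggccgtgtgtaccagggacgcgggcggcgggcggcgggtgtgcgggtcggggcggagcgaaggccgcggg
Cxcl1: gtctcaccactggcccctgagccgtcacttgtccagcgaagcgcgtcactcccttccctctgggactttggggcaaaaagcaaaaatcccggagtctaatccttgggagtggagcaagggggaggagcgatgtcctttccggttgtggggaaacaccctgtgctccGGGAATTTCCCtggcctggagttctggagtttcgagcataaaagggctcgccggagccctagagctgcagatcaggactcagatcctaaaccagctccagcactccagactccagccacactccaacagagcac
Cxcl6: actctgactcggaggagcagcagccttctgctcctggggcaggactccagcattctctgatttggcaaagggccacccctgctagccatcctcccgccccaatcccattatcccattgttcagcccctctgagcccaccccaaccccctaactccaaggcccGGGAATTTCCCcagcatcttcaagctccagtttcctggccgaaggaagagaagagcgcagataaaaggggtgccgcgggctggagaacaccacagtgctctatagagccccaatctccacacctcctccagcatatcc
Nfkbia: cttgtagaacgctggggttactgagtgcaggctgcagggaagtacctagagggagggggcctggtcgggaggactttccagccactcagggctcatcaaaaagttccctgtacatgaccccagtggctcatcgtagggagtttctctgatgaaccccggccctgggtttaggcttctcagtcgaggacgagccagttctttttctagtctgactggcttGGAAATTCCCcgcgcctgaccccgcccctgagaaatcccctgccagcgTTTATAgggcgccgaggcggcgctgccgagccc

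Mki67 held 4 CCAAT boxes and 2 cell cycle homology regions, of which 1 overlaps a CCAAT box. Cxcl1 and Cxcl6 held the same run GGGAATTTCCC, which matches the kappa B motif on both strands and so counts as 2 overlapping matches. Nfkbia held 1 kappa B match and 1 TATA box. Promoters were found for 380 of the 520 separated and tested genes. The kappa B motif was in 12.9% of the 225 promoters of higher genes and 15.5% of the 155 promoters of lower genes, against 9.93% for tested genes and 7.6% for all 27457 promoters in the table. The CCAAT box was in 40.4%, 47.1%, 37.3% and 37.7% in the same order. The cell cycle homology region was in 9.78%, 13.5%, 11.9% and 18.1%, and the TATA box in 8.89%, 3.23%, 7.29% and 14.3%. TCACGTGA, a core of lysosomal gene promoters, was in 0.889%, 1.94%, 1.59% and 0.867%. A match describes the sequence and is no evidence that a factor bound there.

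Polyamine genes were separated in both directions. Smox, spermine oxidase, which turns spermine into spermidine, was at 44.6, 47.2 and 45.9 CPM for Hollow, 69.8, 65.3 and 78.7 for AFMC and 55.8, 51.1 and 50.03 for AFMC-AA-SP. The AFMC-AA-SP libraries lay between Hollow and AFMC, and the 3 groups did not overlap. As a log2 fold change against Hollow this was 0.41 ± 0.07 (SE), made up of 0.63 for AFMC and 0.19 for AFMC-AA-SP against the same Hollow libraries. Atp13a2, which exports polyamines from lysosomes, was at 83.6, 95.2 and 90.5 CPM for Hollow, 136, 127 and 242 for AFMC and 112, 101.1 and 102.2 for AFMC-AA-SP, with AFMC replicate 3 high. The log2 fold change of Atp13a2 was 0.57, or 0.39 without that library. Atp13a3, a related transporter, was lower, at 100.7, 104 and 106 CPM for Hollow, 81.3, 89.7 and 57.9 for AFMC and 94.9, 91.9 and 99.5 for AFMC-AA-SP. Azin2, an antizyme inhibitor that protects ornithine decarboxylase, was at most 6.54 CPM and had a log2 fold change of 0.44. Of the 22 tested polyamine genes 3 were separated higher and 1 lower, against 1.90% and 1.42% of all genes tested, and the median was 0.02. Among antioxidant genes, Cat, catalase, was at 71.8, 77.5 and 81.7 CPM for Hollow, 93.6, 90.6 and 82.7 for AFMC and 96.7, 105 and 104 for AFMC-AA-SP. It was one of the genes with a larger difference for AFMC-AA-SP, 0.41, than for AFMC, 0.21. Gclm, the regulatory subunit of the enzyme that starts glutathione synthesis, was lower, at 18.8, 17.6 and 18.2 CPM for Hollow, 13.4, 12.8 and 13.4 for AFMC and 15.2, 14.8 and 15.5 for AFMC-AA-SP. Its log2 fold change against Hollow was -0.36 ± 0.07 (SE), -0.37 without AFMC replicate 3, and Hollow and the fibre-filled libraries were each narrowly spread. Mt2A, a metallothionein, was lower too, with a log2 fold change of -0.61, or -0.37 without Hollow replicate 2.

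Other higher genes of smallest p came from different functions. Cpz, carboxypeptidase Z of the extracellular matrix, was at 36.9, 25.7 and 33.1 CPM for Hollow, 43.5, 74.2 and 90 for AFMC and 57.3, 61.8 and 56.1 for AFMC-AA-SP. On the log2 scale the difference from Hollow was 0.99 ± 0.21 (SE). Cd24, a membrane glycoprotein of immature and immune cells, was at 6.403, 5.08 and 4.74 CPM for Hollow, 15.3, 9.03 and 26.4 for AFMC and 10.99, 12.4 and 12.1 for AFMC-AA-SP, a log2 fold change of 1.39 or 1.15 without AFMC replicate 3. Glul, glutamine synthetase, was at 597, 640.2 and 613 CPM for Hollow, 852, 812 and 893 for AFMC and 684, 655 and 689 for AFMC-AA-SP. Its AFMC libraries were well above, and its AFMC-AA-SP libraries just above, Hollow. Slc43a2, an amino acid transporter, had the same order, with 0.71 for AFMC and 0.20 for AFMC-AA-SP. Fndc5, the precursor of irisin, and Ifitm1, an interferon-induced membrane protein, had log2 fold changes of 0.76 and 0.28. Zfp36, which destabilises cytokine mRNA, was the separated member of the immediate early list, in which 13 of 20 tested genes were positive, and Mmp11, a matrix protease, that of the list of matrix proteases and inhibitors, in which 14 of 23 were. Their log2 fold changes were 0.60 and 0.37, 0.41 for Zfp36 without AFMC replicate 3 and 0.25 for Mmp11 without Hollow replicate 2. Fcrla, of B cells, had one of 0.95, or 0.63 without AFMC replicate 3. In its list 14 of 15 tested genes were positive, with a median of 0.69, and without that library 7 were, with a median of -0.07. Other higher genes stood in lists that held more negative than positive members with all 9 libraries. Dgat2, an enzyme of fat synthesis, had a log2 fold change of 0.86, or 0.54 without AFMC replicate 3. In its adipocyte list 9 of 15 tested genes were negative, but 9 were positive without AFMC replicate 3 and 10 without Hollow replicate 3. That list's median was -0.52 for AFMC and 0.54 for AFMC-AA-SP. Alpl, alkaline phosphatase, had a log2 fold change of 0.68, or 0.575 without AFMC replicate 3, in the cartilage and bone list, where 9 of 13 were negative. Ret, a receptor for glial cell line-derived neurotrophic factors, had one of 0.77, or 0.61 without AFMC replicate 3. In its list of neurotrophic factors and receptors 16 of 20 were negative and 2 others were separated lower. All 19 tested skeletal muscle genes had a positive fold change. None was separated, against 3.32% of all genes tested in either direction. Their summed level ran from 292 to 2523 CPM in Hollow and from 466 to 2601 CPM in the fibre-filled libraries. Their median of 0.60 ran from 0.22 to 2.71 when 1 library was left out, lowest without Hollow replicate 3 and highest without Hollow replicate 1.

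**Figure D3:**
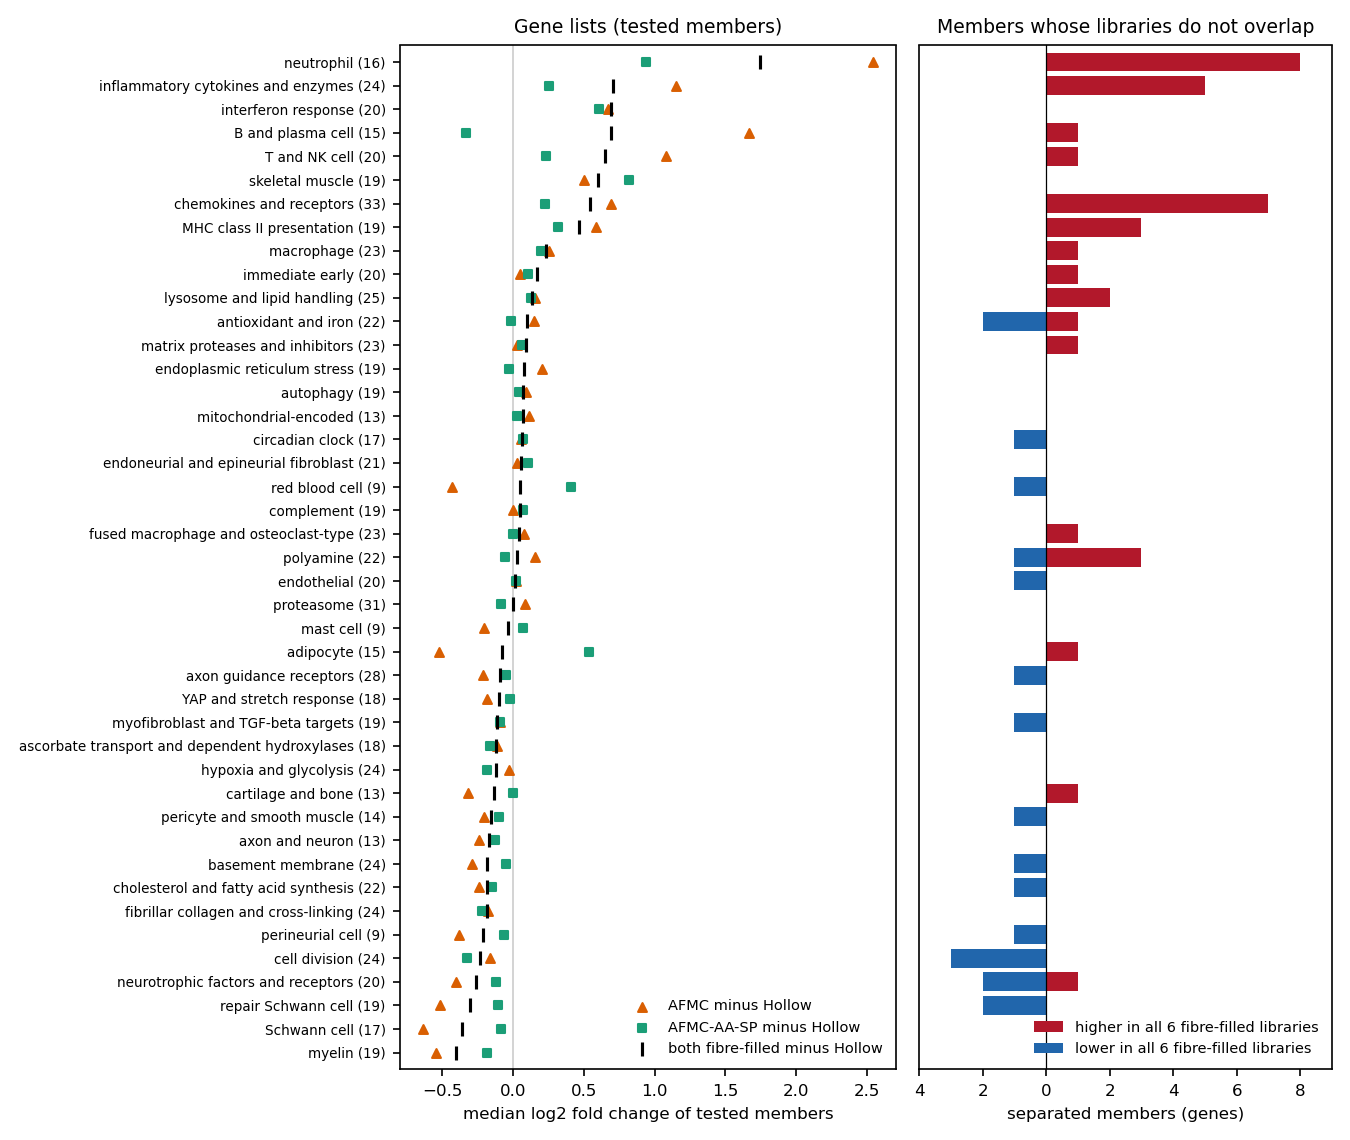
Median log2 fold change against Hollow of the tested members of 43 gene lists (left; triangles AFMC, squares AFMC-AA-SP, ticks both, list size in brackets) and the number of separated members in each list (right; bars to the right higher and to the left lower). The neutrophil list is at the top, with a median of 1.74 and 8 separated members, and the myelin list at the bottom, with -0.40 and none.

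Cell division genes lay on the lower side in the fibre-filled conduits. All 24 tested members of the list had a negative fold change, with a median of -0.24, or -0.27 without AFMC replicate 3. Of the 24, 3 were separated, all lower, against 1.42% of all genes tested. Without Hollow replicate 2 the median was -0.08 and 18 of 24 were negative. Mki67, which codes for the Ki-67 protein of dividing cells, was at 112, 152 and 92.8 CPM for Hollow, 71.7, 90.03 and 86.3 for AFMC and 88.4, 91.8 and 85.8 for AFMC-AA-SP. Hollow replicate 3 lay just above the highest fibre-filled library, and the fibre-filled libraries were narrowly spread. The log2 fold change of both conduits against Hollow was -0.47 ± 0.14 (SE), -0.25 without Hollow replicate 2 and -0.38 with library offsets fitted to gene length. Kif11, a motor of the mitotic spindle, was at 23.2, 28.9 and 22 CPM for Hollow, 16.9, 18.4 and 18.4 for AFMC and 19.3, 18.7 and 20.9 for AFMC-AA-SP. Tpx2, which helps assemble the spindle, was at 34.01, 36.97 and 29.1 CPM for Hollow, 24.5, 28.6 and 27.98 for AFMC and 23.1, 27.4 and 25.97 for AFMC-AA-SP. Both had all 3 Hollow libraries on top, Hollow replicate 2 highest. In this list Hollow replicate 2 had the highest summed level, 935 CPM, against 673 and 754 in the other Hollow libraries and 617 to 711 in the fibre-filled ones. Further genes of chromosomes and replication were separated lower, but wider annotation sets held separated genes in both directions. Of 119 tested genes in the KEGG cell cycle pathway, 3 were separated higher (2.52%) and 2 lower (1.68%). In Gene Ontology these were 4 and 4 of 126 DNA repair genes (3.17% each). For cell division they were 2 (1.56%) and 7 (5.47%) of 128. The shares of all genes tested were 1.90% higher and 1.42% lower. Ncapg, a condensin subunit, was at 13.96, 16.1 and 13.2 CPM for Hollow, 7.11, 9.62 and 8.299 for AFMC and 11.9, 12.4 and 10.9 for AFMC-AA-SP. Pola1, the catalytic subunit of DNA polymerase alpha, was at 19.6, 24.1 and 18.1 CPM for Hollow, 14.5, 14.2 and 13.1 for AFMC and 14.6, 16.4 and 16.7 for AFMC-AA-SP. Both conduits against Hollow gave a log2 fold change of -0.47 ± 0.10 (SE). Smc2 and Smc4, the core of condensin, Aspm, a spindle pole protein, and Arhgap11a, a GTPase-activating protein of dividing cells, were named after their values were seen, with log2 fold changes of -0.37, -0.26, -0.39 and -0.36. Cdkn1c, an inhibitor of the cell cycle, was higher, at 21.3, 27.7 and 24.5 CPM for Hollow, 29.2, 45.1 and 44.2 for AFMC and 38.9, 30.9 and 39.1 for AFMC-AA-SP, and was named in the same way.

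Single members of the vessel and matrix lists were separated lower: 1 of 14 tested pericyte and smooth muscle genes, 1 of 19 myofibroblast genes, 1 of 24 basement membrane genes and 1 of 20 endothelial genes, against 1.42% of all genes tested. Fold changes were negative for 10 of the 14, 12 of the 19, 21 of the 24 and 10 of the 20, and the endothelial median was 0.01. Cspg4, the NG2 proteoglycan of pericytes and other progenitors, was at 109, 123 and 121 CPM for Hollow, 97.8, 73.5 and 56.9 for AFMC and 67.6, 78.7 and 75.5 for AFMC-AA-SP. Against Hollow, the log2 fold change was -0.65 ± 0.14 (SE), with -0.63 for AFMC and -0.67 for AFMC-AA-SP. Ltbp2, a matrix protein of the latent TGF-beta binding family, was at 98.6, 118 and 112 CPM for Hollow, 57.2, 78.8 and 42.4 for AFMC and 63.02, 76.1 and 74.96 for AFMC-AA-SP, a log2 fold change of -0.75. Col4a1, a chain of basement membrane collagen, was at 3097, 2582 and 2590 CPM for Hollow, 2083, 2514 and 2258 for AFMC and 2010, 2493 and 2327 for AFMC-AA-SP, where the nearest libraries were 1.03 apart as a ratio. Esm1, of the tips of growing vessels, had a log2 fold change of -0.62. Afdn, the adherens junction protein afadin, was at 60.2, 62.5 and 62.5 CPM for Hollow, 33.7, 49.9 and 42.4 for AFMC and 45.5, 47.3 and 47.7 for AFMC-AA-SP. Vcl, vinculin, and Dsp, desmoplakin, which anchor junctions to the cytoskeleton, had log2 fold changes of -0.26 and -0.96 and were named after their values were seen. Dlg1, a scaffold of cell polarity, had one of -0.29. Stc2, a secreted glycoprotein, was at 53.04, 53.1 and 33.2 CPM for Hollow, 19.2, 24.98 and 13.6 for AFMC and 21.8, 26.96 and 20.7 for AFMC-AA-SP. As a log2 fold change against Hollow this was -1.14 ± 0.20 (SE), one of the larger differences among the lower genes, and Hollow replicate 3 was the lowest Hollow library.

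Of the guidance and growth factor genes, Bdnf, a neurotrophin that repair Schwann cells make, was at 5.96, 5.08 and 4.92 CPM for Hollow, 3.003, 3.298 and 2.88 for AFMC and 4.16, 4.54 and 3.94 for AFMC-AA-SP. Its log2 fold change against Hollow was -0.57 ± 0.13 (SE), with AFMC lowest. Artn, artemin, a ligand of the Ret receptor, had a log2 fold change of -0.29, and Unc5b, a netrin receptor, one of -0.31. Slit3, a guidance ligand, and Sfrp1, an inhibitor of Wnt signals, were named after their values were seen, with -0.48 and -0.34. Guidance genes were separated in both directions. Of 156 tested genes in the KEGG pathway of axon guidance, 5 were separated higher (3.21%) and 2 lower (1.28%). The shares of all genes tested were 1.90% and 1.42%. Zfp536, a zinc finger transcription regulator, had the smallest p among lower genes, at 13.8, 14.02 and 14.2 CPM for Hollow, 4.11, 6.71 and 4.47 for AFMC and 9.87, 10.6 and 7.95 for AFMC-AA-SP. AFMC was lower than AFMC-AA-SP in every library, and the 3 groups did not overlap. On the log2 scale the difference from Hollow was -1.01 ± 0.16 (SE), and -0.97 without AFMC replicate 3. None of the 17 tested Schwann cell genes or 19 myelin genes was separated, against 3.32% of all genes tested in either direction. All had a negative fold change, with medians of -0.36 and -0.40. The myelin median was -0.16 without Hollow replicate 2, when 1 of the 19 was positive. For Schwann cell genes the median was -0.64 for AFMC and -0.09 for AFMC-AA-SP.

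The remaining lower genes of smallest p were Hnrnpa3, an RNA-binding protein, Trib2, a pseudokinase, Hltf, a chromatin remodelling helicase, Shcbp1 and Kank4. Hnrnpa3 was at 461, 411 and 454 CPM for Hollow, 359, 367 and 314 for AFMC and 289.9, 319 and 295 for AFMC-AA-SP. The log2 fold change of both conduits against Hollow was -0.45 ± 0.08 (SE), with -0.35 for AFMC and -0.55 for AFMC-AA-SP. Trib2 was at 31.8, 33.1 and 29.9 CPM for Hollow, 23.5, 23.9 and 25.2 for AFMC and 25.6, 25.8 and 26.03 for AFMC-AA-SP, with both groups narrowly spread. Log2 fold changes were -0.32 for Hltf, -0.44 for Shcbp1 and -0.46 for Kank4. Single separated members of other lists were Clock, of the circadian clock, Sc5d, of cholesterol synthesis, Moxd1, in the perineurial list, and Epor, the erythropoietin receptor, with -0.32, -0.32, -0.82 and -0.48. Sc5d was at -0.20 without Hollow replicate 2 and Epor at -0.32 without Hollow replicate 3. With all 9 libraries, positive fold changes were found for 10 of 17 tested circadian clock genes and 5 of 9 red blood cell genes. Clock and Epor thus lay against the larger part of their lists. For cholesterol and fatty acid synthesis 3 of 22 tested genes were positive, and for the perineurial list 0 of 9.

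Whether the 2 fibre-filled conduits differed at these genes was tested in the same fit as AFMC-AA-SP minus AFMC. The rule did not use this difference, but it used the levels of the same 6 libraries, so shares among separated genes are descriptions. EdgeR called 0 separated genes, and the smallest adjusted p over all genes was 0.0553. At an unadjusted p under 0.05 there were 52 of 298 higher genes (17.4%) and 36 of 222 lower genes (16.2%), close to the 17.3% of all genes tested. DESeq2, in either direction, called 12 of the 280 higher genes that it gave an adjusted p (4.29%) and 2 of the 203 lower genes (0.985%), against 594 of 14414 genes in the whole table (4.12%). Without AFMC replicate 2, edgeR called 19 of the separated genes. Calls over all genes were not counted in that fit, so this number cannot be set against a share of the whole table. The AFMC difference from Hollow was larger in size than the AFMC-AA-SP difference in 254 of 298 higher genes and 175 of 222 lower genes, together 82.5%, against 67.5% of all genes tested. Both differences share the Hollow libraries, and the rule used both, so their sizes among separated genes are descriptions. Medians were 0.52 for AFMC and 0.32 for AFMC-AA-SP among the higher genes, and -0.40 and -0.26 among the lower. Smox had a log2 difference of -0.45 (95% interval -0.63 to -0.26, edgeR adjusted p = 0.104). That of Zfp536 was 0.90 (95% interval 0.47 to 1.34, edgeR adjusted p = 0.118). Il1b, with its wide AFMC spread, had -2.10 (95% interval -3.91 to -0.30, edgeR adjusted p = 0.239). These differences did not pass the adjusted test. Ifitm1 was at 0.03 (95% interval -0.14 to 0.20, edgeR adjusted p = 0.879), an interval that holds 0. A log2 difference between the conduits within 0.1 of 0 was found for 76 of the 298 higher genes and 81 of the 222 lower genes. The share was smaller among the higher genes, and larger among the lower genes, than the 31.3% of all genes tested.

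**Figure D4:**
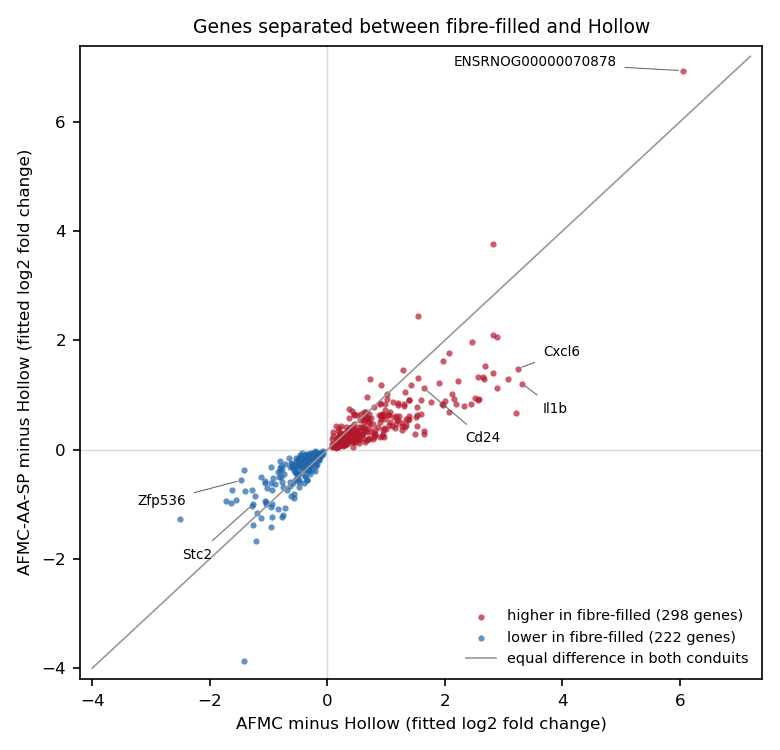
Fitted log2 fold change against Hollow of each of the 520 separated and tested genes, for AFMC (x axis) and AFMC-AA-SP (y axis), with higher genes in red and lower genes in blue. The line marks equal differences, the Hollow libraries are shared by both axes, and most points lie on the AFMC side of the line, 254 of 298 higher and 175 of 222 lower.

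Gene length moved with the direction of separation. Lengths are those the deposited table implies. The median was 2399 bp for higher genes, 4064 bp for lower genes and 2956 bp for all genes tested. When genes were put in 3 equal groups by length, 2.55% of the shortest group were separated higher and 0.824% lower, and 1.28% and 2.43% of the longest group. Across the 15659 genes, which are not independent, Spearman's rho between length and fold change was -0.278 for AFMC and -0.00244 for AFMC-AA-SP against Hollow. With library offsets fitted to gene length, 305 genes were separated higher and 202 lower, of which 241 and 162 were among the 298 and 222. The part of length in these results was otherwise not tested.

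**Figure D5:**
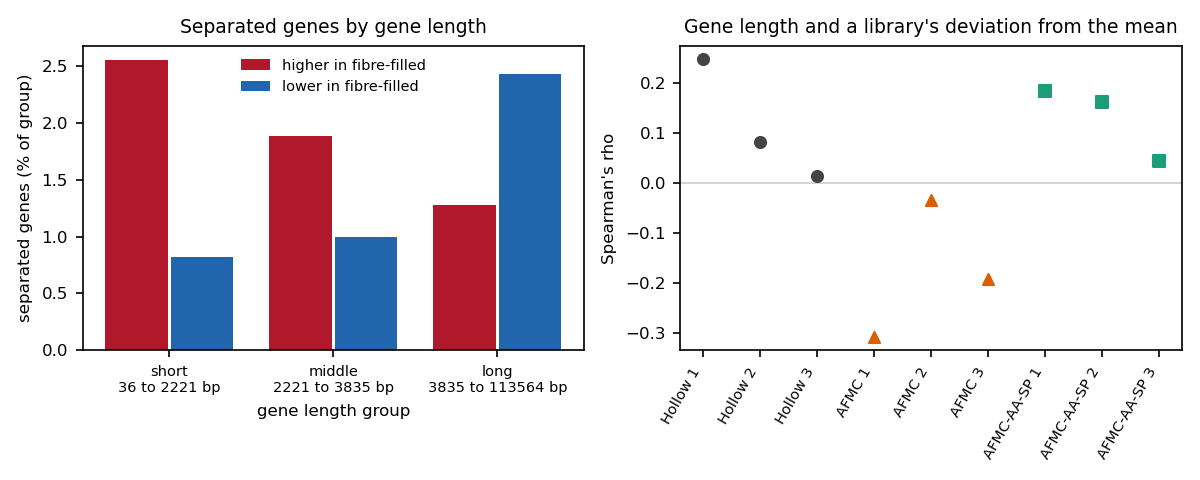
Left, share of genes separated higher (red) or lower (blue) in each of 3 equal groups by gene length, in percent of the tested genes of that group. Right, Spearman's rho across genes between length and how far a library lies from the mean of all 9, with circles for Hollow, triangles for AFMC and squares for AFMC-AA-SP. The longest group has more lower than higher genes, 2.43% against 1.28%, and AFMC replicate 1 has the lowest rho, -0.307.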

How the data were processed

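The deposited counts are whole reads per gene, and per the file headers the same table gives FPKM, which scales counts by gene length and library total, with 1 length per gene. Per the labels, poly(A) RNA was read strand-specifically, 150 bp from both ends. The sources used here do not give the aligner, counting program, annotation or build. Counts (18314489 to 26074134 per library) were filtered with filterByExpr, which left 15659 of 21486 genes, scaled with TMM and tested with edgeR 4.0.16 in R 4.3.3, with 1 term for each of the 3 conduit groups. The contrast was the mean of AFMC and AFMC-AA-SP minus Hollow, with Benjamini-Hochberg adjustment, two-sided. DESeq2 1.42.0 and limma-trend 3.58.1 on log2(FPKM + 1) and log2(FPKM + 0.1) were alternatives. The fit was tested on simulated data. The members, the 43 gene lists (848 symbols, 775 tested) and the tests were chosen with earlier results of these data known. Named genes were, in each direction, the 15 separated genes of smallest p with a symbol and 5 CPM or more in the higher group, and from each list the 2 separated genes of smallest p with at least 1 CPM. Other separated members of a list, and the genes described so in the text, were chosen after their values were seen. One gene that the rule names is not reported here.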

Additional observations from a re-analysis of the deposited data

Results flagged for a closer look

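In 29 of 91 named genes, 1 of the 6 fibre-filled libraries, which come from 2 groups, lay farther from the other 5 than Dixon's 95% critical value of 0.625 allows. For normally distributed levels chance flags about 1 in 20 groups, the levels used were CPM without logarithm, and the genes are not independent. The named genes were chosen by the levels of these libraries. The share flagged among all genes tested was not computed, so the count describes the named genes only. In 25 of the 29 the library was AFMC replicate 3, which was the highest of the 9 libraries for 22.0% of all genes tested. There the neutrophil genes S100a8, S100a9, Cxcr2, Csf3r, Camp, Padi4, Fpr1 and Il1r2 were at 50.99, 139.9, 99.8, 278, 3.73, 2.83, 2.14 and 90.6 CPM. The cytokine and chemokine genes Il1b, Il12b, Nfkbia, Ccl3, Cxcl1 and Cxcl6 were at 560.0, 1.64, 366, 127, 28.7 and 248 CPM. Of genes of other leukocytes and of antigen presentation, RT1-Ba, Oscar, Ncr3, Fcrla, Cd24, Ctsh and Ctsc were at 353, 61.2, 10.8, 18.1, 26.4, 531 and 439.5 CPM. The remaining genes Atp13a2, Dgat2, Zfp36 and G0s2 were at 242, 133, 244 and 92.3 CPM. Elsewhere, Ctsl was at 1938 CPM in AFMC-AA-SP replicate 3, Artn at 2.69 CPM and Mki67 at 71.7 CPM in AFMC replicate 1, and Azin2 at 6.54 CPM in AFMC replicate 2.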

How the results depend on the processing

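Under every alternative run by edgeR (RLE or upper-quartile factors, keeping low counts, requiring 1 CPM in 3 libraries, 1 term for all fibre-filled libraries, an offset following gene length, the replicate number as a block, and each library left out) 0 genes were called higher and 0 lower for both conduits against Hollow. DESeq2 called 32 and 16, and limma-trend on log2(FPKM + 0.1) called 1 and 0. Of 1725 values of 91 named genes under the alternatives, 34 passed the threshold in the alternative only, 33 of them with DESeq2, and 0 changed direction. Separated genes numbered 310 higher and 215 lower with RLE factors, 259 and 262 with upper-quartile factors, and 255 and 297 with unscaled totals or FPKM. Leaving out 1 library gave 345 to 929 higher and 279 to 887 lower, and fewer libraries have to be cleared by construction. The most came without Hollow replicate 3, and without Hollow replicate 1 or 2 there were 713 and 608 higher and 484 and 455 lower. For AFMC-AA-SP against AFMC, 14 separated genes were called by DESeq2, and 0 to 19 by edgeR with a library left out, the 19 without AFMC replicate 2. Calls over all genes were not counted in the fits with a library left out. With a replicate block edgeR called 0 genes. Correlations of the deviations ran from -0.0466 to 0.14 for same-numbered libraries of different groups and from -0.129 to 0.0843 for differently numbered ones. The ranges overlapped, though the highest values, 0.14 and 0.131, were of same-numbered libraries. The numbers were not taken as pairs in the main fit. Medians of the gene lists with each library left out were computed after seeing the data.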
